A study of Mus musculus with 18 samples.

Results

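The mitochondrial chromosome of the mouse is transcribed inside the organelle, and the genes described here are all those it encodes that the colorectal expression table lists. They were chosen by name, as every row whose gene symbol starts with mt-, and they are 33 of the 10897 genes of the table. By the table's own transcript type they are 13 messenger RNA (mRNA) genes, 2 ribosomal RNA (rRNA) genes and 18 transfer RNA (tRNA) genes. All 33 lie on chromosome MT, and all 33 have the same start, end and strand in the GENCODE M21 annotation of build GRCm38. That annotation holds 37 mitochondrial genes, and the other 4, the tRNA genes mt-Tv, mt-Th, mt-Ts2 and mt-Tl2, are not analysed here.

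The mRNA genes encode core subunits of respiratory chain complexes I, III and IV and of the ATP synthase (complex V), and the rRNAs and tRNAs serve the ribosome that translates them inside the organelle. Both strands are transcribed as long RNAs that are cut, mostly at the tRNAs, into single transcripts, and transcription and stability depend on nuclear proteins such as the polymerase Polrmt, the factor Tfam and the RNA-binding protein Lrpprc. Colonocytes, the absorptive cells of the colon surface, are rich in mitochondria and are known for burning short-chain fatty acids made by gut bacteria.

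Colorectal tissue of male C57BL/6J mice aged 10 weeks was sequenced in 18 libraries, 6 in each of the groups GF-AOMS, GF-AOM and Control. Azoxymethane (AOM) is a carcinogen that induces colon tumours. In the sample characteristics, GF-AOMS stands for germ-free mice with AOM-induced colorectal cancer and cigarette smoke exposure, GF-AOM for germ-free mice with AOM-induced cancer, and Control for wild-type mice with a specific pathogen-free (SPF) flora that also have AOM-induced cancer. The treatment protocol instead has an AOM model with smoke, an AOM model without it, and a normal control, and the growth protocol keeps all mice under SPF conditions. Smoke is what sets GF-AOMS apart from GF-AOM in either description, but whether Control differs by flora or by AOM cannot be told from the labels, and the groups keep their label names here. Total RNA came from colon, ribosomal RNA was removed, and strand-specific libraries were made. The labels give 6 mice per group, as many as there are libraries, but do not tie each library to its own animal, so every p-value here reflects spread among the 18 samples, which may be technical. All libraries carry 1 batch label.

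Libraries held 49.0 to 79.2 M (mega) counts. The Control libraries differ among themselves in a marker of place along the colon. Hoxa13, a homeobox gene of the distal colon, lay at 24.8 to 50.1 CPM in GF-AOMS, at 34.5 to 53.5 CPM in GF-AOM, and in Control at 42.0 and 38.7 CPM in replicates 1 and 2 but at 0 to 3.05 CPM in replicates 3 to 6. CPM is a gene's count per M counts of the library after TMM scaling. The 6 absorptive colonocyte markers, all measured and none at 0, summed to 1140 to 2370 CPM in GF-AOMS, 760.0 to 2290 CPM in GF-AOM and 2110 to 22000 CPM in Control, and 2 of the 6 fell in GF-AOMS against Control, where 0.624% of all genes did. Of the 6, 4 lay below 0 and 2 above it against Control, with a median log2 difference of -0.65 in GF-AOMS and, with 0 called, -0.87 in GF-AOM. Of the other cell type marker lists with 5 or more genes measured, 3 lay wholly to 1 side of Control in both GF groups, with 0 genes called: plasma cell markers above 0 in 5 of 5 (median 0.70 in GF-AOMS, 1.26 in GF-AOM), smooth muscle in 6 of 6 (0.85 and 0.46) and fibroblast markers below 0 in 5 of 5 (-0.44 and -0.33). Epithelium markers lay below 0 in 5 of 6 in both GF groups (-0.34 and -0.46) and endothelium markers in 4 of 5 (-0.37 and -0.27), with 0 called. Goblet cell and macrophage markers had medians of 0.20 and 0.04 in GF-AOMS and 0.32 and 0.40 in GF-AOM, also with 0 called. Cytosolic ribosomal protein genes took 7.41% to 26.7% of counts in GF-AOMS, 7.97% to 19.6% in GF-AOM and 5.34% to 15.7% in Control.

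The genes are packed end to end. Of the 36 pairs of neighbouring mitochondrial genes in the annotation, 34 are under 5 bases apart or overlap. A tRNA gene lies next to both ends of 8 of the 15 mRNA and rRNA genes and next to 1 end of 6 more, and mt-Atp6 has none, since it overlaps mt-Atp8 by 43 bases and mt-Co3 by 1 base. The minus strand holds 9 of the 33 genes, namely mt-Nd6 and 8 tRNA genes, and mt-Nd6 differs in composition from the other mRNA genes. Read along its own strand, mt-Nd6 is 28.1% G and 5.97% C, whereas the 12 plus-strand mRNA genes hold 5.88% to 16.1% G and 22.1% to 30% C.

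Sequences are shown for the genes on which the comparisons below turn, from the GENCODE M21 transcripts (GRCm38), 5′ to 3′. The methionine tRNA gene mt-Tm (MT:3845-3913, plus strand) ends where the coding sequence of mt-Nd2 (MT:3914-4951, plus strand) begins, with 0 bases between them. The arginine tRNA gene mt-Tr (MT:9808-9875, plus strand) ends 1 base before mt-Nd4l (MT:9877-10173, plus strand). Capitals mark the anticodon in the tRNA genes and the first codon in the first 60 bases of the mRNA genes, and mt-Nd2 and mt-Nd5 (MT:11742-13565, plus strand) start with ATA and ATC, which the mitochondrial code reads as starts.
mt-Tm: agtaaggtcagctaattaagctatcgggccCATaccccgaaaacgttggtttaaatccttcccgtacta
mt-Nd2: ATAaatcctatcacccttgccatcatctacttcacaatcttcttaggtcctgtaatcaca
mt-Tr: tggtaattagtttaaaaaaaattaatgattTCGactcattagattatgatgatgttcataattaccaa
mt-Nd4l: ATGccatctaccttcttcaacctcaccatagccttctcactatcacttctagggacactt
mt-Nd5: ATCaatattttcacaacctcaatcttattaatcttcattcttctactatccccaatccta

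Where coding sequences overlap on the same strand, reads over the shared bases fit both genes, and how the authors counted such reads is not stated. The last bases of mt-Atp8 (MT:7766-7969) and of mt-Nd4l show this, with the bases shared with mt-Atp6 and with mt-Nd4 in capitals.
mt-Atp8 end: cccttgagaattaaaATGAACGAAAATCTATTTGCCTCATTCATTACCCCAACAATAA
mt-Nd4l end: tctcaacctactacaATGCTAA
Of the 13 mRNA genes, 10 end in a whole TAA or TAG stop codon. The coding sequences of mt-Co3, mt-Nd4 and mt-Cytb end in a lone T, which polyadenylation is known to complete to a stop.

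Per length, parts of the order of the mRNA genes held in every library. In FPKM (fragments per kilobase, scaled by depth), mt-Co1, the catalytic subunit of cytochrome oxidase, averaged 7629 (SD 2549, n = 18) and mt-Co3, another of its core subunits, 5390 (SD 1338). These were the highest 2 of the 13 in every library, with mt-Co1 above mt-Co3 in 14 of 18. The ATP synthase subunit mt-Atp6 averaged 3714 FPKM (SD 855.6) and mt-Co2 3513 FPKM (SD 804.6), ranks 3 and 4 in every library. The next 3 did not separate, since mt-Atp8 (mean 2329 FPKM), the complex I subunit mt-Nd1 (2249 FPKM) and the complex III subunit mt-Cytb (2200 FPKM) each exceeded the next in 11 and 10 of 18 libraries. Complex I subunits filled the low end, with mt-Nd5 at 454.0 FPKM (SD 205.5) and mt-Nd4l at 431.5 FPKM (SD 161.1) as the lowest by mean, and mt-Nd5 above mt-Nd4l in 9 of 18 libraries. The position of mt-Nd3 was the least stable, with ranks from 5 to 13.

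Nuclear copies make some of these levels uncertain, since how reads that match several places were counted is not stated. The table also lists 6 mitochondria-derived pseudogenes on chromosome 1, between bases 24611535 and 24616197, whose sequences are 99.71% to 100% identical to mt-Co1, mt-Co2, mt-Atp6, mt-Co3, mt-Nd3 or mt-Nd4 over the aligned bases. Their counts followed those of their mitochondrial sources. The copy of mt-Co3 (Gm28437) held 1.00 to 1.01 counts for each count of mt-Co3, that of mt-Co2 (Gm28661) 0.997 to 1.02, that of mt-Nd3 (Gm28438) 0.990 to 1.00 and that of mt-Atp6 (Gm10925) 1.03 to 1.05. The 2 partial copies held less, 0.294 to 0.398 for mt-Nd4 (Gm28439) and 0.118 to 0.253 for mt-Co1 (Gm29216). Values of these 6 mitochondrial genes are therefore uncertain. No copy was analysed here for mt-Nd1, mt-Nd2, mt-Atp8, mt-Nd4l, mt-Nd5, mt-Nd6 or mt-Cytb, and other nuclear copies were not searched for. The 6 copies lie in mitochondrial gene order. They have gaps where mt-Ts1, mt-Td, mt-Tk, mt-Atp8, mt-Tg, mt-Tr and mt-Nd4l lie between the mitochondrial sources. Whether these gaps hold copies of such genes was not tested, so their values may be uncertain too.

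The tRNA genes, 65 to 75 bases long, gave few reads and divided by strand. The 8 on the minus strand averaged 11.83 to 841.3 FPKM, with a median of 55.94, and the 10 on the plus strand averaged 1.57 to 86.1 FPKM, with a median of 3.44. All 8 minus-strand tRNAs were among the 10 highest of the 18, together with the plus-strand genes mt-Tl1 (leucine) and mt-Tm. The serine tRNA gene mt-Ts1 led with 841.3 FPKM (SD 257.5, n = 18), followed by proline mt-Tp at 276.5 FPKM (SD 95.5) and glutamate mt-Te at 179.0 FPKM (SD 51.5). These genes lie opposite the long plus-strand transcript, and whether the counting used strand is not stated, so reads of both strands may be mixed. The 6 lowest tRNA genes had under 50 counts in every library. Library preparation of this kind removes or misses most mature tRNAs, and ribosomal RNA was removed, so tRNA and rRNA counts are not abundances.

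As a share of all counts, mitochondrial genes took 3.11% ± 0.671 in GF-AOMS, 3.15% ± 0.496 in GF-AOM and 4.59% ± 0.722 in Control (SD, n = 6 each). By library the share lay between 2.32% and 4.25% in GF-AOMS (median 3.07%), between 2.48% and 3.75% in GF-AOM (median 3.06%), and between 3.49% and 5.72% in Control (median 4.52%). The highest GF-AOMS library, replicate 4, lay inside the Control range, as did GF-AOM replicates 1 and 4, and the lowest Control library was replicate 1. Control replicates 1 and 2, with Hoxa13, had 3.49% and 4.42%, and replicates 3 to 6 had 4.48% to 5.72%. Nearly all of these counts were from the mRNA genes, at 3.00% in GF-AOMS, 3.00% in GF-AOM and 4.36% in Control. No test was run on these sums. In bulk tissue, fewer cells of a type and less RNA per cell cannot be told apart.

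The rRNA genes took 0.107% ± 0.0331 of counts in GF-AOMS, 0.138% ± 0.0490 in GF-AOM and 0.212% ± 0.0739 in Control (SD, n = 6 each). The tRNA genes took 0.0110% ± 0.00284 in GF-AOMS, 0.0128% ± 0.00438 in GF-AOM and 0.0152% ± 0.00366 in Control. The ranges of the groups overlap for both classes. The 6 nuclear copies took 1.23% in GF-AOMS, 1.3% in GF-AOM and 1.66% in Control.

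**Figure D1:**
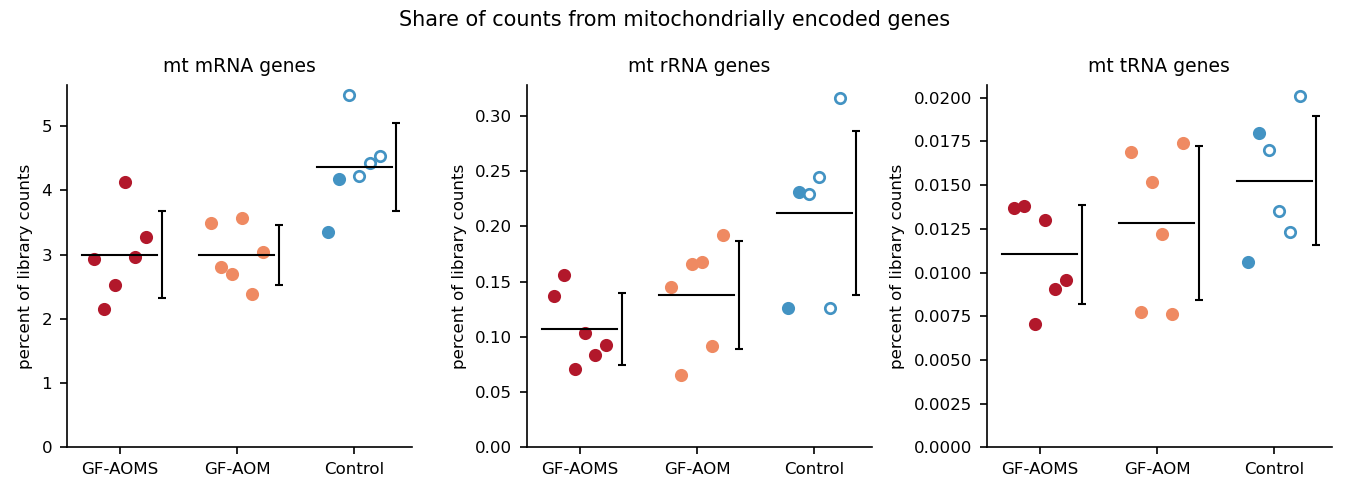
Percent of each library's counts (vertical axes, from 0) from mRNA, rRNA and tRNA genes of the mitochondrial chromosome in GF-AOMS, GF-AOM and Control. Each point is 1 library, open points are the 4 Control libraries low in Hoxa13, lines are means and bars are SD (n = 6); mRNA genes averaged 3.00% in both GF groups and 4.36% in Control, with ranges that overlap.

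GF-AOMS was compared with Control first. Of the 33 genes, 3 fell in GF-AOMS and 0 rose: mt-Nd2, a core subunit of complex I, and the tRNA genes mt-Tr and mt-Tm. Over all 10897 genes 0.624% were called lower and 0.734% in either direction, by edgeR's quasi-likelihood test with a Benjamini-Hochberg adjusted p under 0.05. Differences were below 0 for 12 of the 13 mRNA genes, 2 of 2 rRNA genes and 18 of 18 tRNA genes, against 49.0% of all genes. The median log2 difference was -0.49 over the mRNA genes, -0.85 over the rRNA genes and -0.40 over the tRNA genes, and 0.01 over all genes. Among the mRNA genes, the 7 that are the source of none of the 6 listed nuclear copies had a median of -0.62, and the 6 that are -0.39. This split does not show that the 7 are free of nuclear copies. At an unadjusted p under 0.05, 9 of 13 mRNA genes lay lower, against 9.25% of all genes.

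**Figure D2:**
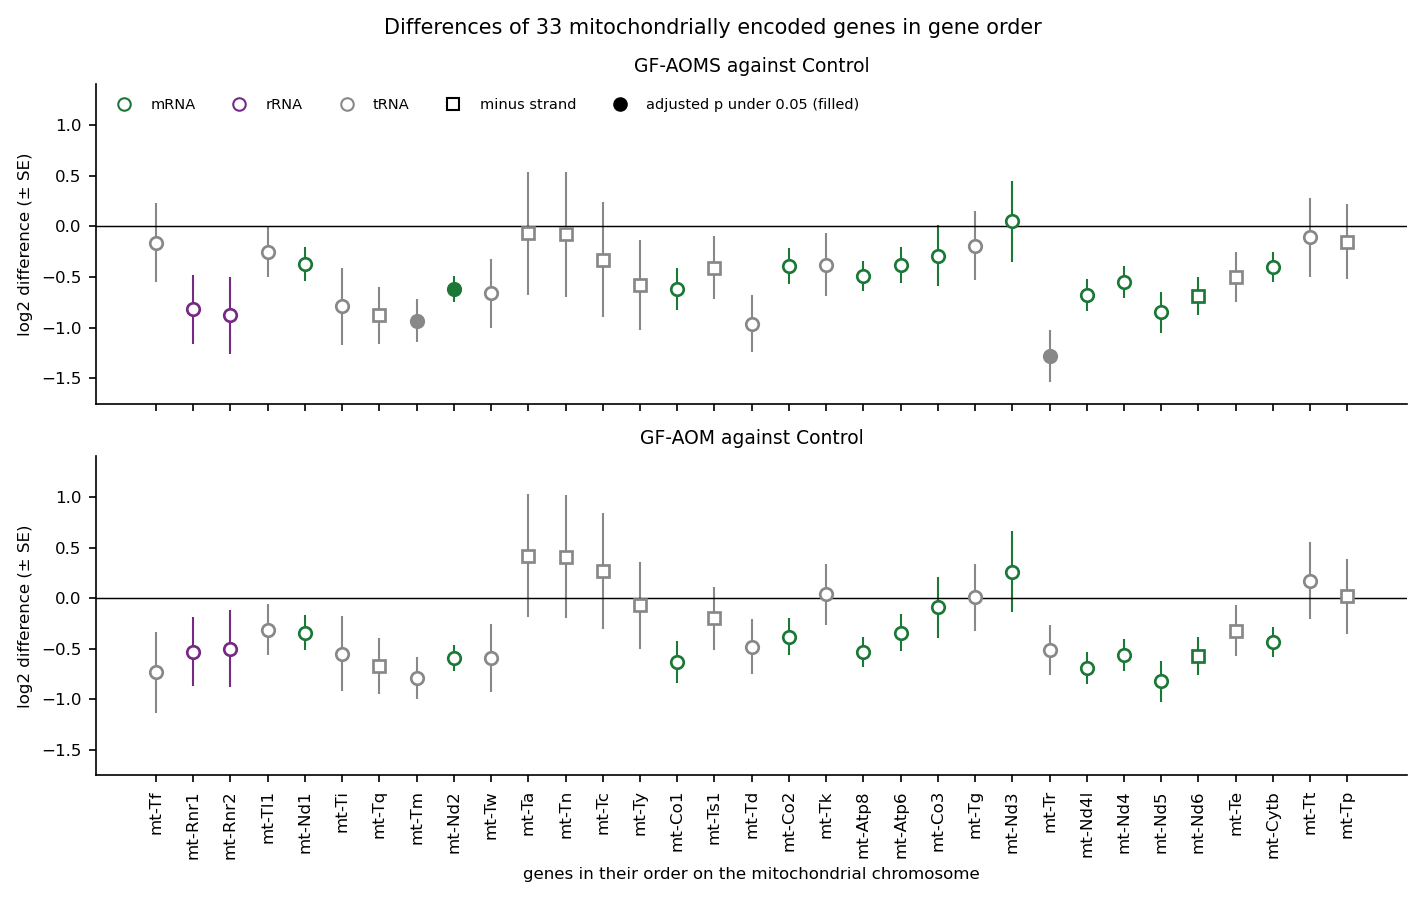
Log2 difference with its standard error (vertical axis) of the 33 mitochondrial genes, in their order along the chromosome, for GF-AOMS against Control (top) and GF-AOM against Control (bottom), 6 libraries per group. Filled symbols passed the adjusted p of 0.05 and squares are minus-strand genes; the 3 filled points, mt-Tm, mt-Nd2 and mt-Tr, are in the top panel, and mt-Nd3 lies above 0 in both panels, at 0.05 and 0.26.

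Complex I is the largest respiratory chain complex, and 7 of its core subunits are mitochondrially encoded. The mRNA of mt-Nd2 ran from 575.4 to 950.4 CPM in GF-AOMS (median 757.8) and from 938.8 to 1331 CPM in Control (median 1189). Of the GF-AOMS libraries, 1 (replicate 4) lay above the lowest Control library, and all 6 lay below the Control mean. The log2 difference was -0.62 (SE 0.13, edgeR adjusted p = 0.0408). Control replicates 1 and 2, which carry Hoxa13, had 1104 and 1216 CPM, above every GF-AOMS library.

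For mt-Nd5, the subunit at the tip of the membrane arm, counts ran from 540.9 to 997.3 CPM in GF-AOMS (median 725.2) and from 1021 to 1874 CPM in Control (median 1171), with no overlap between the groups. The log2 difference of -0.85 (SE 0.20) missed the threshold (edgeR adjusted p = 0.0582). The small subunit mt-Nd4l ran from 86.0 to 157.9 CPM in GF-AOMS (median 122.8) and from 146.9 to 252.0 CPM in Control (median 187.0), and its difference of -0.68 (SE 0.16) missed it as well (edgeR adjusted p = 0.0596). For both genes the Control libraries with Hoxa13 were the lowest 2 of the 6, at 1021 and 1093 CPM for mt-Nd5 and at 146.9 and 169.6 CPM for mt-Nd4l. Control divides by Hoxa13 for these 2 genes and not for mt-Nd2.

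The only mRNA gene on the minus strand, mt-Nd6, ran from 224.0 to 408.5 CPM in GF-AOMS (median 284.1) and from 357.6 to 642.5 CPM in Control (median 500.1). Its log2 difference was -0.69 (SE 0.19, edgeR adjusted p = 0.0997), and 1 GF-AOMS library, replicate 4, lay inside the Control range. The other complex I genes had differences of -0.55 for mt-Nd4, -0.37 for mt-Nd1 and 0.05 for mt-Nd3, none of which passed.

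**Figure D3:**
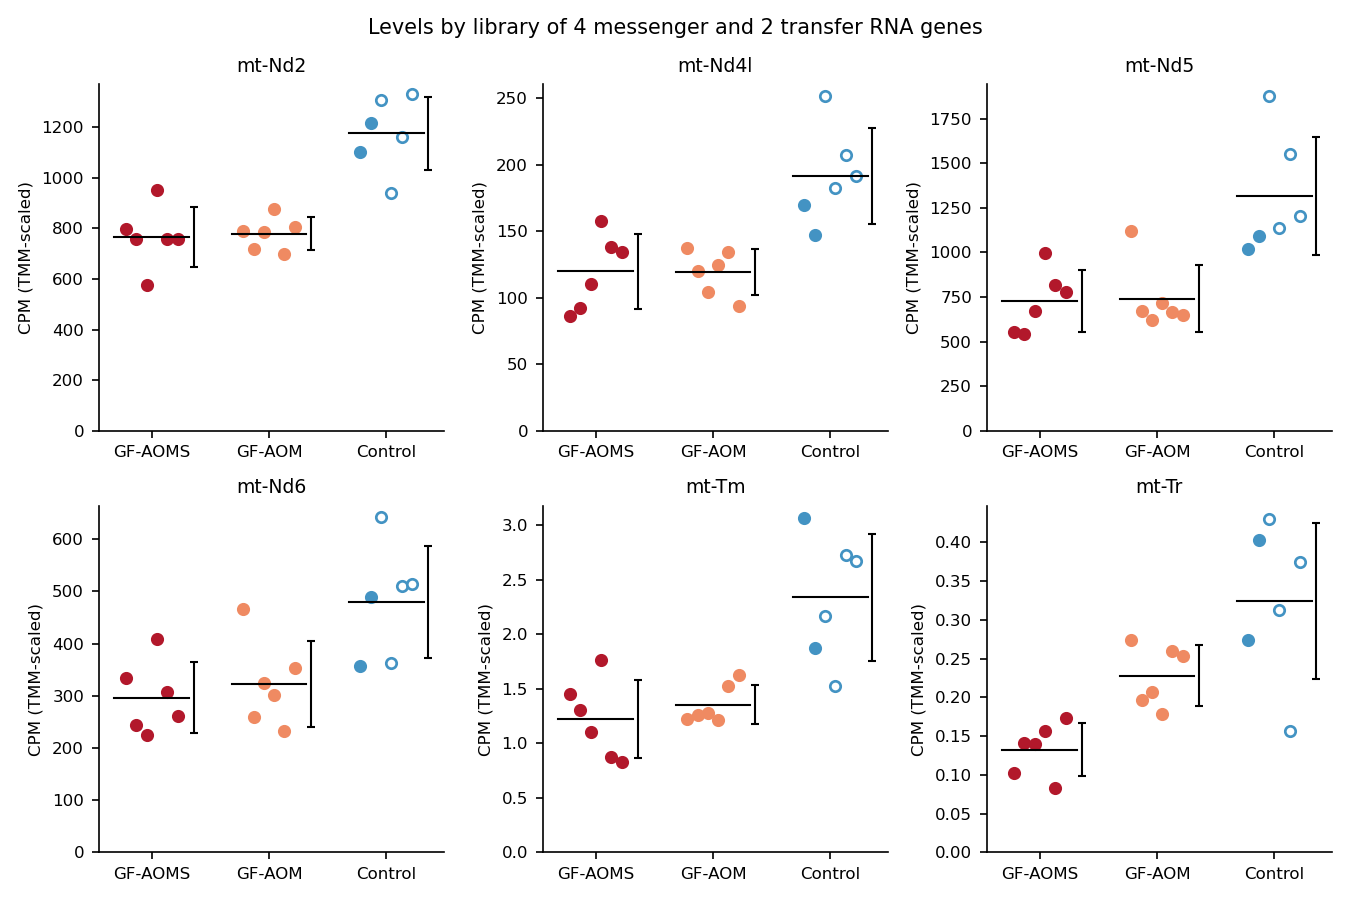
Counts per M counts (CPM, TMM-scaled, vertical axes from 0) in each of 6 libraries of GF-AOMS, GF-AOM and Control for mt-Nd2, mt-Nd4l, mt-Nd5, mt-Nd6, mt-Tm and mt-Tr. Open points are the Control libraries low in Hoxa13, lines are means and bars are SD; most GF-AOMS points lie under the Control points in each panel, and mt-Tr is lower in GF-AOMS than in GF-AOM too.

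In complex IV, mt-Co1 ran from 8831 to 15510 CPM in GF-AOMS (median 10660) and from 11770 to 22940 CPM in Control (median 17660). The ranges overlap, and the log2 difference of -0.62 (SE 0.21) did not pass (edgeR adjusted p = 0.183). Without the 4 Control libraries low in Hoxa13 it was -0.38. The other oxidase subunits, mt-Co2 and mt-Co3, had differences of -0.39 (SE 0.18) and -0.29 (SE 0.30). The complex III subunit mt-Cytb had -0.40 (SE 0.15, edgeR adjusted p = 0.224), and the ATP synthase subunits mt-Atp8 and mt-Atp6 had -0.49 (SE 0.15) and -0.38 (SE 0.18). The standard error of mt-Nd3, 0.40, was the widest of the mRNA genes, followed by that of mt-Co3.

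The tRNA gene mt-Tr had the smallest p-value of the 33 and some of the lowest counts, 5 to 10 in GF-AOMS and 9 to 30 in Control. In CPM it ran from 0.0826 to 0.173 in GF-AOMS (median 0.141) and from 0.156 to 0.429 in Control (median 0.343). All 6 GF-AOMS libraries lay below the Control mean, and the groups overlap through 1 pair, Control replicate 5 at 0.156 CPM and GF-AOMS replicate 6 at 0.173 CPM. The log2 difference was -1.28 (SE 0.26, edgeR adjusted p = 0.0393). For mt-Tm, which carries methionine for starting and extending proteins, counts ran from 0.832 to 1.77 CPM in GF-AOMS (median 1.21) and from 1.52 to 3.06 CPM in Control (median 2.42), a difference of -0.93 (SE 0.21, edgeR adjusted p = 0.0499). The groups overlap, with GF-AOMS replicate 4 above the lowest Control library.

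Of the other tRNA genes, aspartate mt-Td (-0.96, SE 0.28) and glutamine mt-Tq (-0.88, SE 0.28) came next by p, with edgeR adjusted p of 0.116 and 0.150. Values of mt-Tq did not overlap, at 0.364 to 1.127 CPM in GF-AOMS and 1.130 to 1.665 CPM in Control. That made 2 of the 33 genes, mt-Nd5 and mt-Tq, with every GF-AOMS library below every Control library, against 0.541% of all genes (0.798% without overlap in either direction). Of the tRNA genes with the most counts, mt-Ts1 ran from 29.1 to 88.6 CPM in GF-AOMS (median 53.5) and from 46.6 to 115.1 CPM in Control (median 79.8), a difference of -0.41 (SE 0.31). For mt-Tp the range was 9.95 to 40.9 CPM in GF-AOMS (median 18.1) and 12.7 to 35.4 CPM in Control (median 21.8), with -0.15 (SE 0.37), so both overlap widely. Among the minus-strand tRNAs the median was -0.37, and among the plus-strand tRNAs -0.52.

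Both rRNA genes lay lower on average without passing. The small subunit rRNA mt-Rnr1 ran from 230.2 to 748.1 CPM in GF-AOMS (median 365.7) and from 437.2 to 1116 CPM in Control (median 841.2), a log2 difference of -0.82 (SE 0.34, edgeR adjusted p = 0.259). The large subunit rRNA mt-Rnr2 ran from 384.4 to 1423 CPM in GF-AOMS (median 543.3) and from 656.1 to 2002 CPM in Control (median 1386), a difference of -0.88 (SE 0.38, edgeR adjusted p = 0.275). The groups overlap for both, and how evenly rRNA removal worked across libraries was not tested.

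These calls sit at the edge of the threshold. Leaving out each of the 18 libraries in turn, mt-Tr was called in 5 fits (edgeR adjusted p 0.0218 to 0.110), those that left out replicates 1, 2 or 5 of Control or replicates 1 or 4 of GF-AOM. In the same way mt-Nd2 was called in 4 (0.0202 to 0.116), when replicates 1 or 2 of Control or 1 or 4 of GF-AOM were left out, and mt-Tm in 1 (0.0194 to 0.125), without Control replicate 2. The call of mt-Tm was also lost with DESeq2 size factors (edgeR adjusted p = 0.0575) and with a filter on low counts (0.0509). With a colon position term (the mean of Hoxa13 and Hoxb13) in the model 0 of the 33 were called, and the differences were -0.62 for mt-Nd2, -1.50 for mt-Tr, -0.92 for mt-Tm, -0.69 for mt-Nd5 and -0.54 for mt-Nd4l. Without the 4 Control libraries low in Hoxa13 they were -0.60, -1.34, -1.01, -0.54 and -0.40 in the same order, with 0 called. DESeq2 on the same counts called 8 mRNA genes, mt-Tm and mt-Tr lower, 10 of 33, against 2.63% of all genes called lower and 3.44% in either direction. The epithelium, absorptive colonocyte, plasma cell, smooth muscle and fibroblast markers have the values given above in this contrast, and their part in these differences was not tested.

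GF-AOM against Control gave 0 calls among the 33 genes by edgeR, with 10 of 33 under an unadjusted p of 0.05, all lower. DESeq2 called 7, all mRNA genes and all lower. DESeq2 gave no adjusted p here for at least the tRNA genes mt-Tm (-0.78) and mt-Tr (-0.51), which therefore could not be called. Whether it gave one for the tRNA genes with fewer counts than mt-Tm is not reported here. The lack of tRNA calls by DESeq2 is thus in part a matter of which genes could be called. Over all genes edgeR called 0.00918% (1 gene, higher), with 9.74% lower at an unadjusted p under 0.05, and DESeq2 called 1.97% lower and 2.61% in either direction. The median log2 difference was -0.53 over the mRNA genes, -0.51 over the rRNA genes and -0.25 over the tRNA genes, and -0.00 over all genes, and 12 of 13 mRNA genes lay below 0, against 50.5% of all genes. Both comparisons use the same 6 Control libraries, so they are not independent of each other.

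In GF-AOM, mt-Nd2 ran from 700.9 to 877.4 CPM (median 787.1), under every Control library, the lowest of which had 938.8 CPM. The log2 difference was -0.59 (SE 0.13, edgeR adjusted p = 0.0798). For mt-Nd4l the GF-AOM libraries held 93.7 to 137.6 CPM (median 122.3) and the Control libraries 146.9 to 252.0 CPM, again with no overlap, for a difference of -0.69 (SE 0.16, edgeR adjusted p = 0.0882). The mRNA genes whose GF-AOM values lay wholly below Control were mt-Nd2, mt-Nd4l, mt-Nd4, mt-Atp8 and mt-Cytb, 5 of 13, against 0.459% of all genes (0.762% without overlap in either direction). This was true of 0 of the 18 tRNA and 0 of the 2 rRNA genes.

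The largest difference in size was that of mt-Nd5, at -0.82 (SE 0.20, edgeR adjusted p = 0.0987). It ran from 619.7 to 1119 CPM in GF-AOM (median 670.6) and from 1021 to 1874 CPM in Control. GF-AOM replicate 1 had 1119 CPM, inside the Control range, and the next highest GF-AOM library had 718.5 CPM. For mt-Co1 the range was 9055 to 12870 CPM in GF-AOM (median 11900) and 11770 to 22940 CPM in Control (median 17660), with -0.63 (SE 0.21), and for mt-Nd6 232.6 to 466.2 CPM in GF-AOM (median 313.2) and 357.6 to 642.5 CPM in Control (median 500.1), with -0.57 (SE 0.19). Both overlap. Near 0 or above it were mt-Co3 with -0.09 (SE 0.30) and mt-Nd3 with 0.26 (SE 0.40). Among tRNA genes mt-Tm had the smallest p (-0.79, SE 0.21, edgeR adjusted p = 0.111), then mt-Tq (-0.67, SE 0.28). The rRNA differences were -0.53 (SE 0.34) for mt-Rnr1 and -0.50 (SE 0.38) for mt-Rnr2.

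Leaving out Control replicate 2 brought mt-Nd2, mt-Nd4l, mt-Nd5 and mt-Tm under the threshold, and no other single library left out did so for any of these 4. Without the 4 Control libraries low in Hoxa13 the difference was -0.58 for mt-Nd2, -0.86 for mt-Tm, -0.51 for mt-Nd5, -0.41 for mt-Nd4l and -0.39 for mt-Co1, with 0 called.

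The smoke contrast, GF-AOMS against GF-AOM, gave 0 calls among the 33 and 0.0% among all genes by edgeR, with 1.09% of all genes and 1 of 33 members, mt-Tr, under an unadjusted p of 0.05. DESeq2 called 0.0275% of all genes and 0 of the 33. The median log2 difference of the mRNA genes was -0.03, with a range from -0.21 to 0.04, against 0.01 for all genes. For mt-Nd2 it was -0.03 (SE 0.13), for mt-Nd5 -0.03 (SE 0.20), for mt-Nd4l 0.01 (SE 0.16) and for mt-Co1 0.00 (SE 0.21). Differences lay below 0 for 26 of the 33 genes, against 46.4% of all genes, and the 2 rRNA genes stood at -0.30 (SE 0.34) and -0.38 (SE 0.38).

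The gene mt-Tr was the exception in order. It held 0.0826 to 0.173 CPM in GF-AOMS (median 0.141) and 0.178 to 0.274 CPM in GF-AOM (median 0.230). Every GF-AOMS library lay below every GF-AOM library, by a gap of 0.0046 CPM. The share of all genes with this order was 0.00918%, which is 1 gene, mt-Tr itself (0.0642% without overlap in either direction). How many genes would separate in this way by chance was not tested. In counts, mt-Tr had 5 to 10 per GF-AOMS library and 10 to 16 per GF-AOM library. The log2 difference was -0.77 (SE 0.27) with an unadjusted p of 0.0104 and an edgeR adjusted p of 1.00, so it did not pass. The next smallest p-values among the 33 were those of mt-Td (-0.48, SE 0.29) and mt-Tf (0.57, SE 0.40), with as few as 3 counts per library.

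The make-up of the mRNA pool overlapped between all groups. Within the 13 mRNA genes' counts, the share of mt-Co1 was 38.0% ± 3.22 in GF-AOMS, 36.9% ± 2.26 in GF-AOM and 41.2% ± 3.58 in Control (SD, n = 6 each). That of mt-Nd5 was 2.47% ± 0.591 in GF-AOMS, 2.44% ± 0.591 in GF-AOM and 3.13% ± 0.655 in Control. In the other direction, mt-Nd3 made up 1.5% ± 0.779 in GF-AOMS, 1.65% ± 0.631 in GF-AOM and 1.03% ± 0.451 in Control. For 0 of the 13 genes did the shares of any 2 groups fail to overlap.

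Some genes varied more between libraries of the same group than between groups. The alanine, asparagine, cysteine and tyrosine tRNA genes mt-Ta, mt-Tn, mt-Tc and mt-Ty form a minus-strand cluster between mt-Tw and mt-Co1, with 32 bases between mt-Tn and mt-Tc, where the origin of light-strand replication is known to lie. Their sequences, with the anticodon in capitals, are shown because the 4 genes vary together.
mt-Ta: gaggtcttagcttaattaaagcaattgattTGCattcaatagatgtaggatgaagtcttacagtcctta
mt-Tn: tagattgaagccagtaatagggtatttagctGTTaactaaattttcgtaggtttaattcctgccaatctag
mt-Tc: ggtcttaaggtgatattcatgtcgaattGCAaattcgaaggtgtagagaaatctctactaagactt
mt-Ty: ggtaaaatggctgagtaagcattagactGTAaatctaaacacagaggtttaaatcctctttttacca

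Across the 18 libraries mt-Ta ran from 1.08 to 12.45 CPM, mt-Tn from 1.29 to 15.2 CPM, mt-Tc from 0.980 to 8.62 CPM and mt-Ty from 0.865 to 5.07 CPM. By group, mt-Ta ran from 1.27 to 12.45 CPM in GF-AOMS (median 2.34), from 1.08 to 10.4 CPM in GF-AOM (median 5.03) and from 2.10 to 7.48 CPM in Control (median 3.27). The same 6 libraries were the highest for all 4 genes: GF-AOMS replicate 2, GF-AOM replicates 1, 3 and 6, and Control replicates 2 and 6. None of the 4 passed in any comparison, and their standard errors against Control were 0.43 to 0.62.

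On the plus strand, mt-Nd3 and mt-Co3 shared 6 highest libraries, of which 5 are also among those of the tRNA cluster. Across libraries mt-Nd3 ran from 188.4 to 863.3 CPM and mt-Co3 from 2527 to 7865 CPM. Nuclear copies of both genes held close to 1 count for each of theirs, and whether reads were shared is not stated. The 6 highest libraries of each set had length slopes of 0.213 to 0.554 and ribosomal protein shares of 10.7% to 26.7%, and the other 12 libraries had slopes of 0.434 to 0.729 (tRNA cluster) or 0.463 to 0.729 (mt-Nd3 and mt-Co3) and ribosomal protein shares of 5.34% to 16.3%. The length slope is the slope of log2 CPM on log2 gene length over nuclear genes, and a low value means that short genes took more of the counts. The part of length slope or ribosomal protein share in these differences was not tested.

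With a length slope term in the model, mt-Ta stood at -0.65, mt-Tn at -0.67 and mt-Nd3 at -0.36 in GF-AOM against Control, where the model without it gave 0.42, 0.41 and 0.26. The same term left mt-Nd2 at -0.62 in GF-AOM and -0.64 in GF-AOMS against Control, and moved mt-Nd5 to -0.62 and -0.68.

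**Figure D4:**
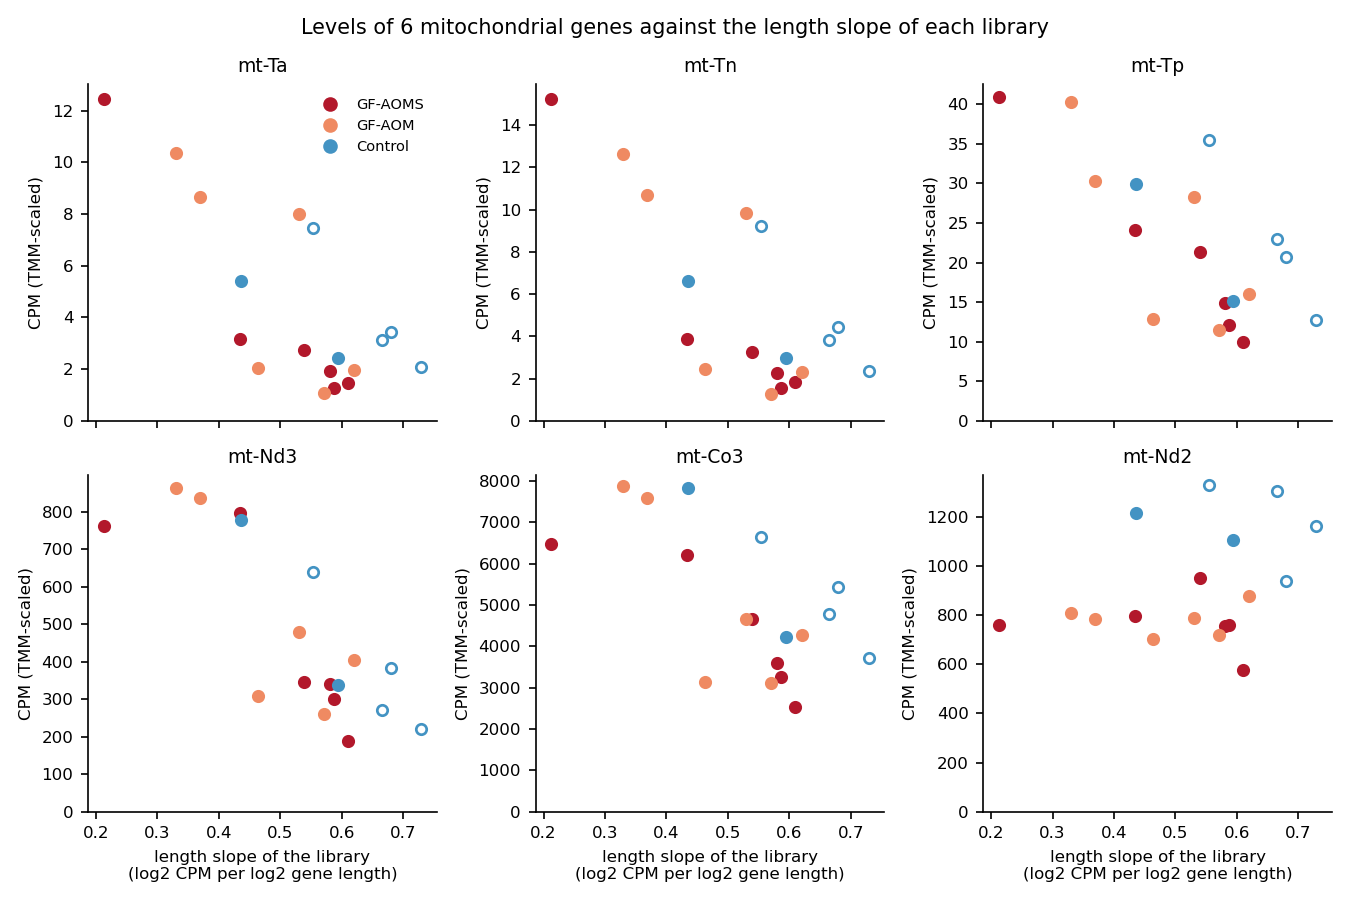
CPM (TMM-scaled, vertical axes from 0) of mt-Ta, mt-Tn, mt-Tp, mt-Nd3, mt-Co3 and mt-Nd2 in each library against the library's length slope (horizontal axis), with GF-AOMS, GF-AOM and Control in colours and open points for Control libraries low in Hoxa13. The library with the lowest slope, GF-AOMS replicate 2 at 0.213, has the highest mt-Ta and mt-Tn of all, and mt-Nd2 ran at 575.4 to 950.4 CPM in GF-AOMS, 700.9 to 877.4 CPM in GF-AOM and 938.8 to 1331 CPM in Control.

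Nuclear genes of mitochondria were set beside the mitochondrial genes, as 15 lists with 270 measured genes, for the expression of the mitochondrial genome, respiratory chain subunits, mitochondrial mass, biogenesis, stress responses and mitophagy. By edgeR 0 of 270 passed in any comparison, and 19 of 270 lay under an unadjusted p of 0.05 in GF-AOMS against Control (16.2% of all genes did), 19 in GF-AOM against Control (15.7%) and 3 in GF-AOMS against GF-AOM (1.09%). In the same order DESeq2 called 2, 2 and 0 of 270, and 3.44%, 2.61% and 0.0275% of all genes. Of the transcription list 8 of 10 genes were measured, with a median log2 difference of 0.04 in GF-AOMS and -0.00 in GF-AOM against Control. The transcription factor Tfam averaged 72.8 ± 11.5 CPM in GF-AOMS, 74.5 ± 10.6 CPM in GF-AOM and 72.8 ± 8.11 CPM in Control (SD, n = 6 each). The polymerase Polrmt averaged 15.4 ± 5.74 CPM in GF-AOMS, 13.7 ± 4.07 CPM in GF-AOM and 14.9 ± 3.19 CPM in Control.

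Among 21 RNA processing and stability genes the median difference was -0.01 in GF-AOMS and -0.06 in GF-AOM against Control. Lrpprc, which stabilises mitochondrial mRNAs, averaged 29.6 ± 10.3 CPM in GF-AOMS, 25.6 ± 8.42 CPM in GF-AOM and 38.6 ± 11.4 CPM in Control. Its differences of -0.39 (SE 0.27) and -0.59 (SE 0.28) against Control did not pass, and with a length slope term they were 0.04 and -0.12. Fastkd2, an RNA-binding protein of the mitochondrial ribosome's assembly, had 0.36 (SE 0.13, edgeR adjusted p = 0.212) in GF-AOMS and 0.35 (SE 0.13, edgeR adjusted p = 0.236) in GF-AOM. The import receptor Tomm20 had 0.62 (SE 0.40) in GF-AOMS and 0.79 (SE 0.41) in GF-AOM, neither of which passed, and the median of the 14 markers of mitochondrial mass was 0.06 in GF-AOMS and 0.00 in GF-AOM.

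The mitophagy receptor Optn came nearest to the threshold among the nuclear genes that are no copies, at 27.9 ± 4.34 CPM in GF-AOMS, 27.9 ± 4.15 CPM in GF-AOM and 37.5 ± 1.74 CPM in Control. The log2 differences of Optn against Control were -0.43 (SE 0.11, edgeR adjusted p = 0.0883) and -0.42 (SE 0.11, edgeR adjusted p = 0.104). The mitophagy list as a whole did not lie lower. Of its 8 measured genes, 5 lay above 0 in GF-AOMS (median 0.10) and 6 in GF-AOM (median 0.11) against Control. Of the stress response genes, the glutathione-degrading enzyme Chac1 stood at 3.88 ± 2.63 CPM in GF-AOMS, 9.21 ± 5.83 CPM in GF-AOM and 3.302 ± 1.46 CPM in Control, with differences of 0.23 (SE 0.46) and 1.48 (SE 0.47) that did not pass.

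The medians of mitochondrial and nuclear subunits had opposite signs in each shared complex. For complex I in GF-AOMS against Control, the 7 mitochondrial genes had a median of -0.62, with 6 below 0, and the 36 nuclear genes a median of 0.29, with 33 above 0. For complex IV the medians were -0.39 over 3 mitochondrial and 0.21 over 15 nuclear genes, and for complex V -0.44 over 2 and 0.26 over 17. In GF-AOM against Control the medians for complex I were -0.57 and 0.31, for complex IV -0.38 and 0.18, and for complex V -0.43 and 0.22. With the length slope term, the nuclear medians were -0.11 for complex I, -0.09 for complex III, -0.18 for complex IV and -0.06 for complex V in GF-AOMS, so the opposite sign of the nuclear subunits does not hold under that model. None of these nuclear subunits passed, and the difference between the genomes was not tested.

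**Figure D5:**
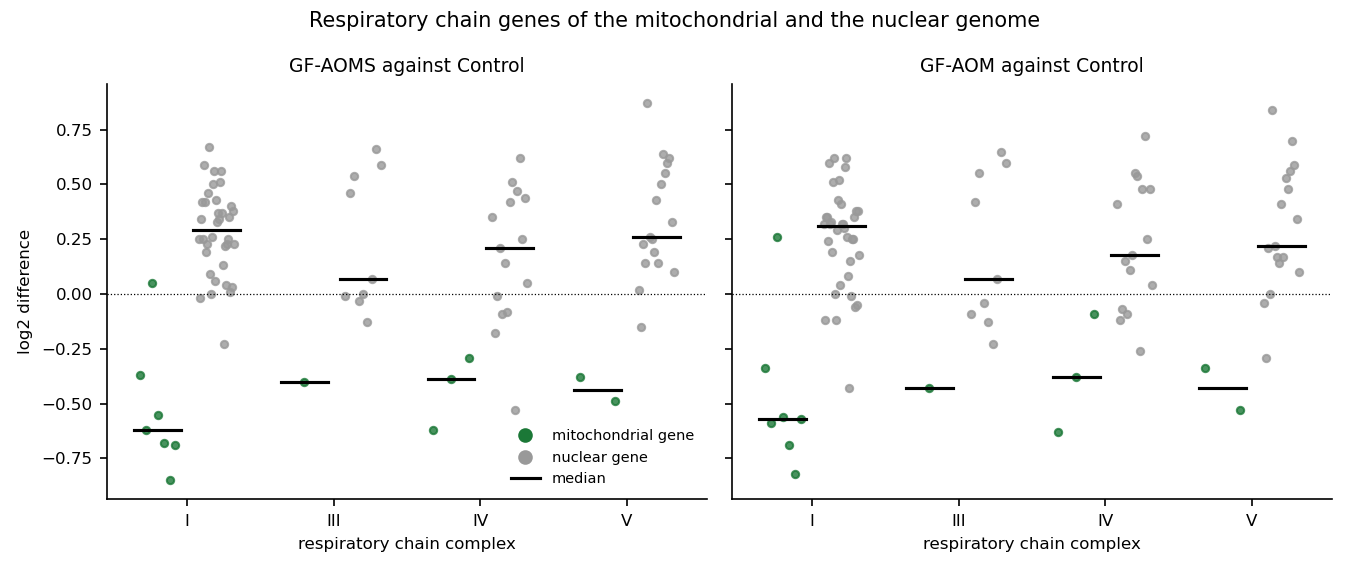
Log2 difference (vertical axis) of each mitochondrial and each nuclear gene of respiratory chain complexes I, III, IV and V in GF-AOMS against Control (left) and GF-AOM against Control (right), with bars at the medians. The mitochondrial medians run from -0.62 to -0.39 on the left and the nuclear ones from 0.07 to 0.29; with a length slope term the nuclear medians of all 4 complexes are negative, at -0.18 to -0.06 in GF-AOMS.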

How the data were processed

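RNA was measured in 18 colon libraries, 6 per group. The submitters' processing notes name featureCounts, DESeq2 and build GRCm39 with no versions, and say nothing of the aligner, which is not given in the sources used here. Per the file headers, the deposited table gives a raw read count and an FPKM value for each gene and library, made by the authors; gene coordinates matched GENCODE M21 (GRCm38), from which sequences and annotation were taken. Counts were tested with edgeR 4.0.16 (R 4.3.3), TMM scaling and a quasi-likelihood fit of all 18 libraries (15 residual degrees of freedom). Benjamini-Hochberg adjustment ran over all genes at 0.05. Each SE was derived from the test, as the size of the log2 difference divided by the square root of its F statistic. A prior count of 2 entered only log2 CPM values, such as those behind the position and length slope terms, and not the tests. As alternatives, limma 3.58.1 and DESeq2 1.42.0 were used. Described in full were mt-Nd2, mt-Nd4l, mt-Nd5, mt-Nd6, mt-Co1, both rRNA genes, the tRNA genes with most counts and the smallest p-values per comparison. Nuclear genes were taken from those with the smallest p per list, and Tfam, Polrmt and Lrpprc were named whatever their p. The mt-Ta cluster, mt-Nd3 and mt-Co3, described for their spread between libraries, were named after their values were seen. The genes and lists were chosen with earlier results of these data known. Same-numbered libraries were not paired in the labels. Alternatives changed the test, scaling, filter, covariates, libraries and denominators.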

Additional observations from a re-analysis of the deposited data

Results flagged for a closer look

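In 153 groups of 6 values, 12 had 1 library far from the other 5 (its gap to the nearest value, as a part of the whole range, exceeded Dixon's critical value at the 95% level); chance gives about 1 in 20. GF-AOMS replicate 2 stood highest in the minus-strand cluster, with 12.45 CPM of mt-Ta (next 3.175), 15.22 CPM of mt-Tn (next 3.892), 8.618 CPM of mt-Tc (next 2.397) and 5.074 CPM of mt-Ty (next 2.049), and had 0.3118 CPM of mt-Tt (next 0.1733). It has the lowest length slope of the 18 libraries, 0.213. GF-AOMS replicate 4 stood highest for mt-Tl1 at 12.84 CPM (next 6.895) and for its neighbour mt-Nd1 at 3264 CPM (next 2244). GF-AOM replicate 1 stood highest for mt-Tl1 at 11.55 CPM (next 6.447) and mt-Nd5 at 1119 CPM (next 718.5), and mt-Nd6, which overlaps mt-Nd5 on the other strand, made up 1.377% of its mitochondrial mRNA counts (next 1.02%). In GF-AOMS replicate 1 mt-Atp6 made up 9.582% of them (next 8.653%), and in Control replicate 5 mt-Tt was lowest, at 0.1041 CPM (next 0.1758). The sources of these values were not tested.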

How the results depend on the processing

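The median log2 difference of the mRNA genes stayed below 0 against Control in every alternative run: -0.57 to -0.38 in GF-AOMS and -0.62 to -0.36 in GF-AOM, and -0.62 to -0.42 and -0.58 to -0.46 when 1 library was left out. Counts of calls did not hold, and the cause was not tested. In GF-AOMS against Control, where 80 genes of the table, 1 mRNA gene and 3 mitochondrial genes were called, DESeq2 gave 375, 8 and 10; library size alone gave 28, 0 and 1; limma gave 19 and 0 mRNA genes with a pseudocount of 1 and 20 and 0 with 0.1; an FPKM filter gave 1 mitochondrial gene; the colon position term, the 2 groups alone, and Control without the libraries low in Hoxa13 gave 0 of each; the length slope term gave 7, 0 and 0. Without libraries of a TMM factor under 0.9, 277 genes were called. Leaving out 1 library gave 0 to 493 genes, 0 to 3 mRNA genes and 0 to 5 mitochondrial genes. In GF-AOM against Control, with 1 gene and 0 members called, DESeq2 gave 284 genes and 7 mitochondrial genes, all mRNA; the TMM limit 132 and 1; library size alone, limma, the position term and the 2 groups alone 0; and leaving out 1 library 0 to 356 genes, 0 to 3 mRNA genes and 0 to 4 mitochondrial genes. In GF-AOMS against GF-AOM, DESeq2 called 3 genes, the length slope term 2 and the TMM limit 1. With a replicate block, 33 genes and 0 members were called in GF-AOMS against Control and 2 genes and 0 members in GF-AOM against Control. Same-numbered libraries correlated from -0.619 to 0.517, with 7 of 18 pairs over 0.1. The own number was the best match in 3 pairs, all in GF-AOMS against Control. The labels do not pair the libraries, and these correlations cannot exclude a shared handling. The Hoxa13 and TMM limits were chosen after seeing the data.

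By summed FPKM, mitochondrial genes took 7.0% in GF-AOMS, 6.97% in GF-AOM and 10.5% in Control, mRNA genes 6.51%, 6.39% and 9.63%, and rRNA genes 0.168%, 0.213% and 0.354% in the same order. Without ribosomal protein genes in the total, mitochondrial genes took 3.62% in GF-AOMS, 3.7% in GF-AOM and 5.03% in Control, and mRNA genes 3.48%, 3.52% and 4.78%.

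Differences that changed sign were small or from tRNA genes, mt-Nd3 and mt-Co3, 91 values of 11 genes. In GF-AOM against Control they were, by library size alone, mt-Tk -0.05, mt-Tg -0.08 and mt-Tp -0.09; by limma with a pseudocount of 1 and of 0.1, mt-Ta -0.0 and -0.01, mt-Tn -0.02 and -0.02, mt-Tc -0.13 and -0.14, mt-Tk -0.05 and -0.1, mt-Tg -0.03 and -0.03, mt-Tt -0.08 and -0.17, mt-Tp -0.14 and -0.14; with the position term, mt-Ty 0.12, mt-Tk -0.03 and mt-Tg -0.18; with the length slope term, mt-Ta -0.65, mt-Tn -0.67, mt-Tc -0.67, mt-Tk -0.1, mt-Tg -0.47, mt-Nd3 -0.36, mt-Tt -0.2 and mt-Tp -0.57; without Control libraries low in Hoxa13, mt-Tg -0.25, mt-Nd3 -0.09 and mt-Tt -0.01; under the TMM limit, mt-Ta -0.18, mt-Tn -0.19, mt-Tc -0.24, mt-Tg -0.08, mt-Nd3 -0.02, mt-Tt -0.05 and mt-Tp -0.31. In GF-AOMS against Control mt-Nd3 turned to -0.05 (library size), -0.06 (limma, both), -0.15 (position), -0.54 (length slope), -0.29 (Hoxa13) and -0.34 (TMM), and with the position term mt-Ta to 0.12 and mt-Tn to 0.11. Leaving out 1 library spanned 0 in GF-AOM for mt-Tk (-0.19 to 0.18), mt-Tg (-0.12 to 0.21), mt-Tp (-0.2 to 0.19), mt-Co3 (-0.25 to 0.04), mt-Ty (-0.24 to 0.12) and mt-Tt (-0.1 to 0.35), and in GF-AOMS for mt-Nd3 (-0.18 to 0.3), mt-Tf (-0.31 to 0.04), mt-Ta (-0.91 to 0.21), mt-Tn (-0.92 to 0.2), mt-Tg (-0.42 to 0.01), mt-Tp (-0.46 to 0.02) and mt-Tt (-0.31 to 0.01).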
